A study of Mus musculus with 11 samples.

Results

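The transient receptor potential (TRP) channel genes of nociceptors were examined in RNA-Seq data from mouse dorsal root ganglia (DRGs). The set holds 9 genes, *Trpv1*, *Trpa1*, *Trpm8*, *Trpm3*, *Trpv2*, *Trpm2*, *Trpm4*, *Trpm7* and *Trpc1*. They were taken by gene symbol from a table of 36670 genes. All 9 had a row and all 9 passed the filter on low values. Nociceptors are sensory neurons whose cell bodies lie in the DRG and which report noxious heat, cold and irritants.

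The study asked what the satellite glial receptor GPR37L1 does in the DRG during chemotherapy pain. Each of the 11 libraries is labelled with 1 sex and 1 number and is called a mouse here, although the labels do not say whether ganglia of several mice were pooled. The groups were WT control mice (n = 3), WT mice 4 weeks after paclitaxel (PTX, a microtubule-binding cancer drug that causes neuropathy; n = 3), Gpr37L1 KO control mice (n = 3) and Gpr37L1 KO mice 4 weeks after PTX (n = 2). Per the study's methods the KO mice carried the Gpr37l1tm1Lex allele, which is not restricted to satellite glia, and were kept with littermates on a C57BL/6 background. The PTX dose, the schedule and the age of these particular mice are not given in the sources used here. Each group held 1 female, and the others were male (4 females and 7 males in all). Each PTX group and each KO group was compared with controls that another comparison also used.

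TRP channels are cation channels built from several subunits around a shared pore. Opening lets sodium and calcium into the sensory ending and depolarises it. TRPV1 answers noxious heat, acid and capsaicin, TRPA1 answers electrophilic irritants such as mustard oil, and TRPM8 answers cool temperatures and menthol. TRPM3 is opened by heat and pregnenolone sulfate, and TRPV2 is linked to strong heat and membrane stretch. TRPM2 is gated by ADP-ribose and oxidative stress, TRPM4 is a calcium-activated channel that carries monovalent ions, TRPM7 is a magnesium and calcium channel joined to a kinase, and TRPC1 forms mixed channels with other TRPC subunits.

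The tissue and genotype labels were checked first. The pan-neuronal markers were high, with *Prph*, which encodes peripherin, at 633 to 834 FPKM and *Avil*, which encodes advillin, at 281 to 312 FPKM over the 11 mice. *Gpr37l1* lay at 14.6 to 35.7 FPKM in the 6 WT libraries and at 0.21 to 1.15 FPKM in the 5 KO libraries. The totals were 52735648 to 80348732 counts per library, with a median of 75538569. The KO PTX libraries had 54914928 and 56747335 counts, below the KO control libraries at 75645085 to 78700213. WT control 1 was the shallowest library and stood apart in its leading gene, *CT010467* at 14803 FPKM, which was at 897 to 2889 FPKM in the other 10 libraries, where *mt-Co1* led. Values that rest on WT control 1 are given with and without it. Genes of neighbouring tissues also varied between libraries, with a summed level of 6 skeletal muscle genes from 3.05 to 518 FPKM. The summed level of 8 spinal cord and central glia genes was 10.01 and 23.58 FPKM in the KO PTX mice and 2.27 to 9.52 FPKM in the other 9 mice. WT control 1 was the highest of those 9 mice, at 9.52 FPKM, close to the lower KO PTX mouse.

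Promoter sequence, which the choice of genes did not use, differed widely between the members. RefSeq promoter records (GRCm38.p6) were found for 7 of the 9 members, and CpG dinucleotides were counted in the 250 bases before each start. The 30 bases just before the RefSeq start are shown for 2 members with few CpG and 2 with many, each 5′ to 3′ with CpG in capitals.
Trpv1: aaaaatgatgggaaaagctttgggatcctc
Trpm8: tataaagtcctccctcctccagtgagctaa
Trpm7: cccttcaCGtgacaCGccctcCGCGCGaCG
Trpc1: cttaagcccCGcccCGgtgtCGtCGcctcc
These windows lie at chr11:73234119-73234148 (plus strand), chr1:88306705-88306734 (plus strand), chr2:126876262-126876291 (minus strand) and chr9:95750349-95750378 (minus strand). For *Trpm8* the RefSeq start lies inside the gene as the deposited table places it, whose start is at 88277661, and not at that start. For *Trpc1* it lies a few bases inside the gene, and for *Trpv1* and *Trpm7* it lies before the gene. The 30 bases from the RefSeq start were found in an annotated transcript for *Trpm8* and *Trpc1* but not for *Trpv1* and *Trpm7*. *Trpv1* and *Trpm8* held 2 and 1 CpG in the 250 bases, and *Trpm7* and *Trpc1* held 26 and 17. The median over 32851 promoter records of the same length was 6, and 7.87% of them had fewer than *Trpm8* while 90.4% had fewer than *Trpm7*. *Trpv2* had 2, 2 and 5 CpG at 3 starts, *Trpm2* had 10, and *Trpm3* had 17 and 9 at 2 starts. A count of CpG describes the letters only.

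*Trpv1* was the highest member in every mouse. The gene lies on chromosome 11 (mm10, 73234292 to 73261239, plus strand). Its level, in FPKM (fragments scaled for gene length and library depth), was 36.7, 55.5 and 41.9 in the WT control mice 1, 2 and 3. It was 40.3, 42.2 and 35.5 FPKM in the WT PTX mice, 38.4, 41.0 and 42.4 in the KO control mice, and 44.1 and 39.2 in the KO PTX mice. The groups overlapped throughout, and the widest spread was among the WT controls (44.7 ± 9.74 FPKM, SD, n = 3). Over all 11 mice the level was 41.6 ± 5.31 FPKM (SD), above 93.1% of the 15087 genes tested. Because whole ganglia were sequenced, fewer cells of a type and less RNA per cell cannot be told apart in any of these values.

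In FPKM as deposited, *Trpv2* and *Trpa1* shared the second place. *Trpv2* lies on the same chromosome as *Trpv1* (62574486 to 62600515, plus strand) and was the steadiest member, at 17.4 to 21.1 FPKM with an SD of 6.72% of its mean. Its values were 20.5, 21.1 and 17.8 FPKM in WT controls, 18.2, 17.9 and 17.4 in WT PTX mice, 17.9, 19.5 and 17.8 in KO controls, and 17.8 and 18.0 in KO PTX mice. Male WT controls 1 and 2 were the highest, followed by male KO control 2. *Trpa1* (chromosome 1, 14872648 to 14918862, minus strand) gave 11.7, 20.7 and 21.4 FPKM in WT controls and 16.9, 19.7 and 16.2 in WT PTX mice. It gave 13.3, 14.9 and 17.0 FPKM in KO controls and 14.4 and 15.5 in KO PTX mice. The WT controls alone spanned the full range of *Trpa1*.

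The cold channel gene *Trpm8* stood far below *Trpv1*, at 3.38 ± 0.786 FPKM (SD, n = 11). It lies on chromosome 1 (88277661 to 88388851, plus strand). Its values were 2.29, 2.40 and 3.63 FPKM in WT controls, 4.03, 3.07 and 4.10 in WT PTX mice, 3.66, 2.07 and 4.18 in KO controls, and 3.81 and 3.94 in KO PTX mice. The 3 lowest mice were male controls, 2 WT and 1 KO, and the 4 females all stood at 3.63 FPKM or more.

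*Trpm3* fell into 2 separate levels that followed neither genotype nor treatment. It stood at 0.42, 0.45 and 0.42 FPKM in WT PTX 3, KO control 2 and KO PTX 3, whereas the remaining 8 mice lay between 1.67 and 2.27 FPKM. The counts behind the low values were 622 to 948, and the highest count was 4797. The gap between the highest and the lowest mouse was 5.4-fold. A gap of 4-fold or more was seen in 6.1% of the genes tested and in 1 of the 9 members. The gene is long (chromosome 19, 22139046 to 22995410, plus strand, 18 transcripts in the table), and the antisense gene *Gm27151* lies within it. *Gm27151* stood at 1.16, 0.75 and 1.29 FPKM in the 3 low mice against 0.44 to 0.87 elsewhere, and its part in the *Trpm3* values was not tested. On the same strand as *Trpm3*, *Nsa2-ps1* also overlaps it, at 2.44 to 3.81 FPKM. The part of *Nsa2-ps1* was not tested either. Whether the counting used strand is not given in the sources used here.

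The 4 widely expressed members had an SD of 7.97% to 12.1% of their mean over the 11 mice, against 12.8% for *Trpv1*. *Trpm7* (chromosome 2, 126791565 to 126876230, minus strand) ranged from 2.78 to 4.54 FPKM and *Trpc1* (chromosome 9, 95705082 to 95750358, minus strand) from 2.84 to 4.44. *Trpm4* (chromosome 7, 45302632 to 45333780, minus strand) ranged from 2.03 to 2.80 and *Trpm2* (chromosome 10, 77907722 to 77970563, minus strand) from 1.92 to 2.44. The gene *Rpl14-ps1* overlaps *Trpm4* on the plus strand and stood far higher, at 42.6 to 70.8 FPKM. Its part in the *Trpm4* values was not tested. WT control 1 was the lowest mouse for *Trpm7*, *Trpc1*, *Trpm2* and also *Trpa1*, and the highest for *Trpm4*.

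**Figure D1:**
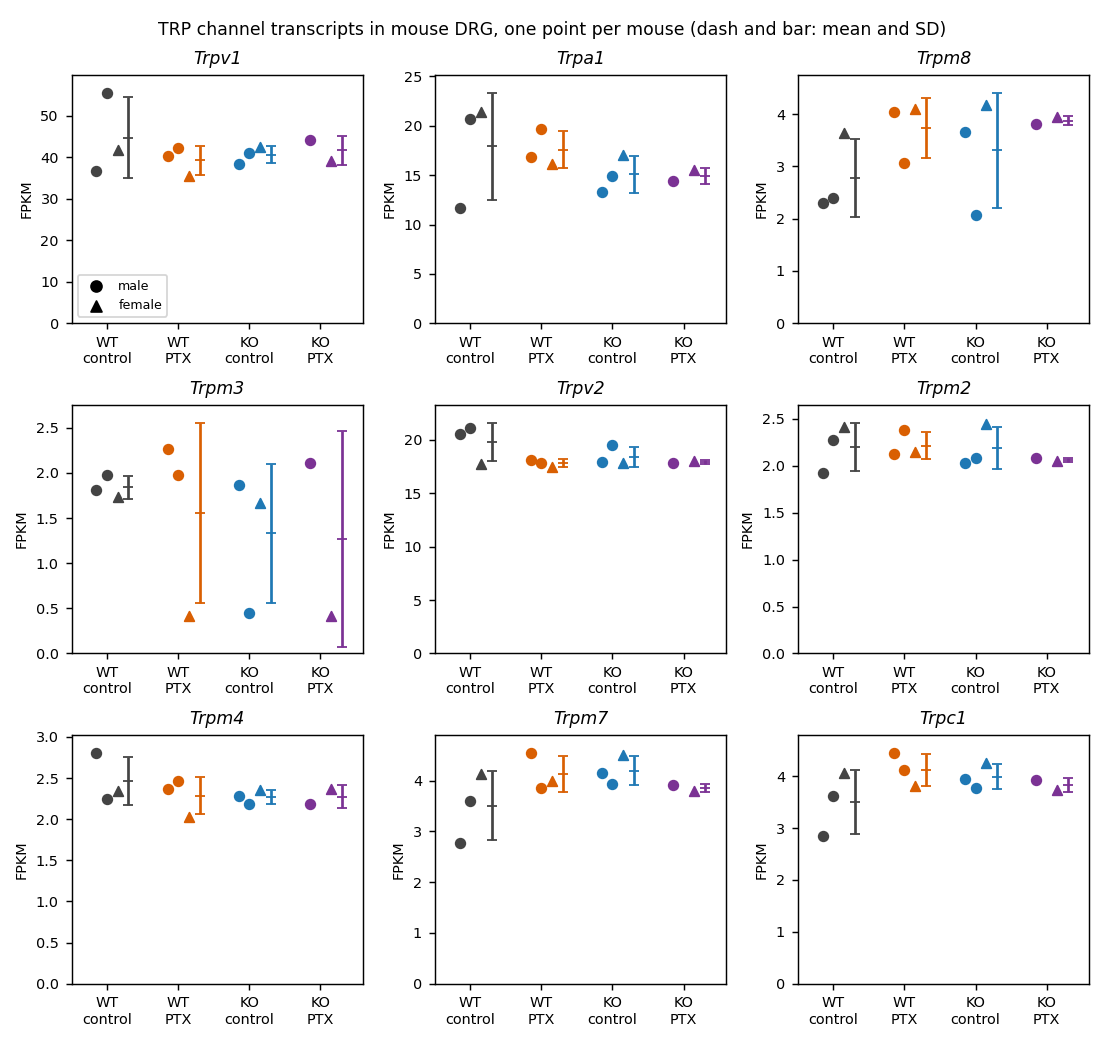
FPKM of each of the 9 genes (vertical axis) in each mouse, by group, with circles for males, triangles for females and a dash and bar for mean and SD. *Trpm8* is lowest in 3 male control mice and *Trpm3* is near 0.4 FPKM in 3 mice of 3 groups, while the other genes overlap in nearly all groups.

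The order of the levels was tested within mice. The difference of log2(FPKM + 1) between neighbours in the order was tested over the 11 mice with exact two-sided permutation of its signs, adjusted over the 8 neighbouring pairs. *Trpv1* was above *Trpv2* in 11 of 11 mice, by 1.12 ± 0.149 (SD) on this log2 scale (adjusted exact p = 0.00391). *Trpv2* and *Trpa1* did not differ beyond their spread (0.17 ± 0.278, 9 of 11 mice, adjusted exact p = 0.0729). *Trpa1* exceeded *Trpm7* by 1.82 ± 0.233 in 11 of 11 mice (adjusted exact p = 0.00391). *Trpm7* and *Trpc1* did not separate, with a difference of 0.02 ± 0.0411 (7 of 11 mice, adjusted exact p = 0.195). *Trpc1* was above *Trpm8* in 9 of 11 mice (adjusted exact p = 0.0312), and *Trpm8* was above *Trpm4* in 9 of 11 (adjusted exact p = 0.0137). *Trpm4* and *Trpm2* did not differ beyond their spread (adjusted exact p = 0.0792), and *Trpm2* was above *Trpm3* in 9 of 11 mice (adjusted exact p = 0.0137).

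Below *Trpv1*, the places and separations in this order depended in part on the length behind FPKM. The length implied by the deposited values was close to that of the union of all exons, which for *Trpm3* is 24437 bases against 5320 bases for its longest coding transcript. When levels were rescaled to the longest coding transcript of each gene, a choice made after the values were seen, *Trpm3* moved from the ninth to the fourth place, at 6.98 ± 3.30 FPKM (SD, n = 11). *Trpm8* and *Trpm2* then came last at 3.86 and 3.73 FPKM and did not differ beyond their spread (adjusted exact p = 0.83). *Trpv2* came to 28.6 FPKM and stood above *Trpa1*, at 16.5 FPKM, in 11 of 11 mice. *Trpm4* then stood above *Trpm8* in 11 of 11 mice (adjusted exact p = 0.00156), the reverse of the order in FPKM. *Trpc1* was above *Trpm7* in 11 of 11 mice (adjusted exact p = 0.00156), a pair that did not separate in FPKM. *Trpv1* stayed first under both lengths.

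**Figure D2:**
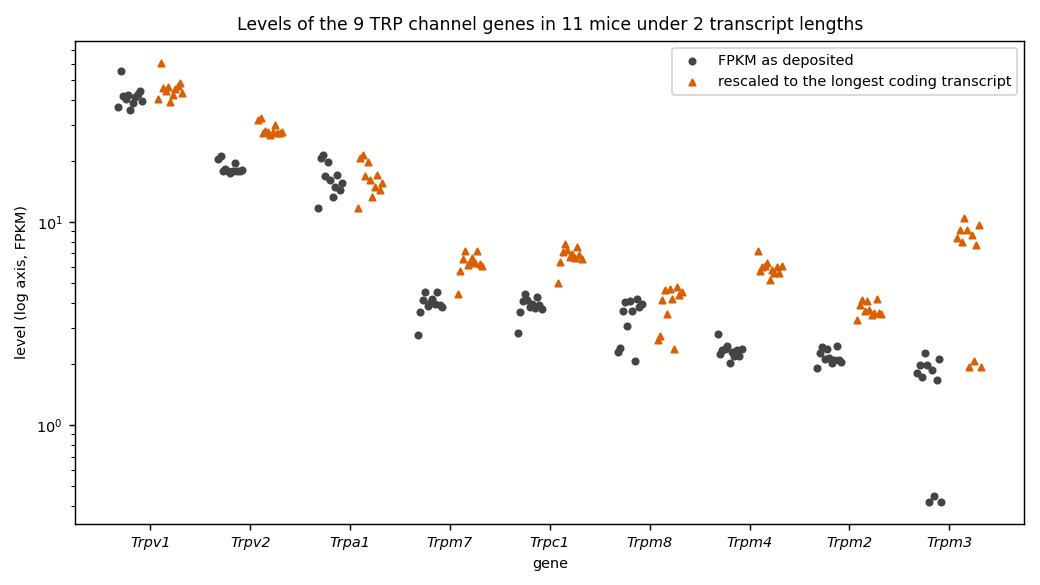
Levels of the 9 genes in the 11 mice (log axis, FPKM), as deposited (circles) and rescaled to the longest coding transcript (triangles). *Trpv1* leads under both lengths, and *Trpm3* shows the largest shift, from a mean of 1.52 to one of 6.98.

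No TRP member passed the test after PTX in WT mice. In edgeR, 0 of the 9 members had an adjusted p under 0.05, against 0.00663% of the 15087 genes tested. DESeq2 also called 0 members, against 2.05% of the genes, and 1 member had an unadjusted p under 0.05, against 13.5% of the genes. That member was *Trpm8*, at 3.73 ± 0.576 FPKM after PTX and 2.77 ± 0.744 in controls (SD, n = 3 each), a log2 fold change of 0.45 (SE 0.197) with an edgeR adjusted p of 0.365. *Trpm7* and *Trpc1* gave 0.24 (SE 0.117) and 0.24 (SE 0.114), with adjusted p of 0.398 and 0.396. Without WT control 1 both were 0.11 (SE 0.0873 each), and *Trpa1* was -0.24 (SE 0.107, adjusted p = 0.491). *Trpv2* gave -0.15 (SE 0.0729, adjusted p = 0.389), and *Trpv1* gave -0.19 (SE 0.126, adjusted p = 0.514). With 1 mouse left out the *Trpv1* value ran from -0.32 to -0.01. *Trpa1* gave -0.02 (SE 0.182), *Trpm2* 0.01 (SE 0.0954) and *Trpm4* -0.12 (SE 0.107). For *Trpm3* the log2 fold change was -0.46 with an SE of 0.634, larger than the estimate. In exact permutation tests of FPKM, where 3 mice against 3 cannot give less than 0.1, the smallest p over the members was 0.2. No member's groups failed to overlap, against 14.2% of genes. The median log2 fold change of the members was -0.02, and that of all genes tested was -0.01.

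In KO mice the PTX comparison also gave 0 of 9 members past the threshold, in edgeR (0.00663% of genes called) and in DESeq2 (0.192%). No member had an unadjusted p under 0.05, against 4.32% of genes. The log2 fold changes ran from -0.29 (SE 0.711) for *Trpm3* to 0.20 (SE 0.219) for *Trpm8*. *Trpv1* gave 0.05 (SE 0.142) and *Trpa1* gave -0.04 (SE 0.205). *Trpm7* was the one member whose groups did not overlap, at 3.86 ± 0.0778 FPKM after PTX (n = 2) and 4.20 ± 0.287 in controls (n = 3). Groups failed to overlap in 21.6% of all genes tested in this comparison. The KO PTX mice were also the mice with the highest summed spinal cord and central glia genes, and *Olig2* and *Slc32a1* of that list were at 0 in some libraries. The KO PTX libraries were also shallower than the KO control libraries. The part of those genes and of depth in the comparison was not tested.

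The PTX effect was compared between genotypes by an interaction term. No member passed in edgeR or DESeq2, against 0.00663% and 0.0795% of genes, and none had an unadjusted p under 0.05, against 6.3%. *Trpm7* came nearest, with a difference of the PTX effect, KO minus WT, of -0.38 on the log2 scale (SE 0.177, edgeR adjusted p = 0.724). *Trpc1* was next at -0.31 (SE 0.172, adjusted p = 0.724). Without WT control 1 these were -0.24 (SE 0.124) and -0.17 (SE 0.124). The 2 effects of *Trpv1* differed by 0.24 (SE 0.19) and those of *Trpa1* by -0.02 (SE 0.275). With 1 mouse left out these ran from 0.05 to 0.38 for *Trpv1* and from -0.21 to 0.22 for *Trpa1*.

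Loss of Gpr37L1 in control mice left 0 of the 9 members past the threshold, in edgeR (0.00663% of genes called) and in DESeq2 (0.278%). *Trpm7* stood at 4.20 ± 0.287 FPKM in KO controls and 3.51 ± 0.681 in WT controls, a log2 fold change of 0.26 (SE 0.117, edgeR adjusted p = 0.657). It was the 1 member with an unadjusted p under 0.05, a level reached by 7.54% of the genes. *Trpa1* was at 15.1 ± 1.86 FPKM in KO controls and 17.9 ± 5.41 in WT controls, with a log2 fold change of -0.24 (SE 0.182, adjusted p = 0.726). *Trpv1* gave -0.13 (SE 0.126) and *Trpv2* gave -0.10 (SE 0.0728). With 1 mouse left out the *Trpv1* value ran from -0.27 to 0.04. Without WT control 1, *Trpm7* gave 0.14 (SE 0.0871, adjusted p = 0.876) and *Trpa1* gave -0.46 (SE 0.106, adjusted p = 0.788). The groups overlapped for all 9 members, and 9.28% of genes did not overlap.

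After PTX, KO and WT mice differed in 0 of 9 members in edgeR (0.0133% of genes called) and DESeq2 (0.0663%), and no member had an unadjusted p under 0.05, against 3.55% of genes. *Trpa1* did not overlap between the groups, with 14.4 and 15.5 FPKM in KO and 16.2 to 19.7 in WT mice. *Trpm2* did not overlap either, at 2.05 and 2.08 against 2.12 to 2.38 FPKM. Of all genes tested, 20.2% did not overlap, and the fitted log2 differences were -0.27 (SE 0.207) for *Trpa1* and -0.11 (SE 0.108) for *Trpm2*, both with an adjusted p of 0.993. The exact permutation p was 0.2 for each, the smallest that 2 mice against 3 allow.

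Sex was a term of the edgeR and DESeq2 models above, and no member passed its test (0.0398% of genes called in edgeR and 0.822% in DESeq2). *Trpm8* was at 3.96 ± 0.243 FPKM in 4 females and 3.05 ± 0.803 in 7 males, with a log2 difference of 0.37 (SE 0.15, edgeR adjusted p = 0.547). It was the 1 member with an unadjusted p under 0.05, against 8.44% of genes. The sexes overlapped for all 9 members, and 1.5% of genes did not overlap. *Trpm3* gave -0.84, females minus males (SE 0.514, adjusted p = 0.688), with 2 of its 3 low mice being female.

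**Figure D3:**
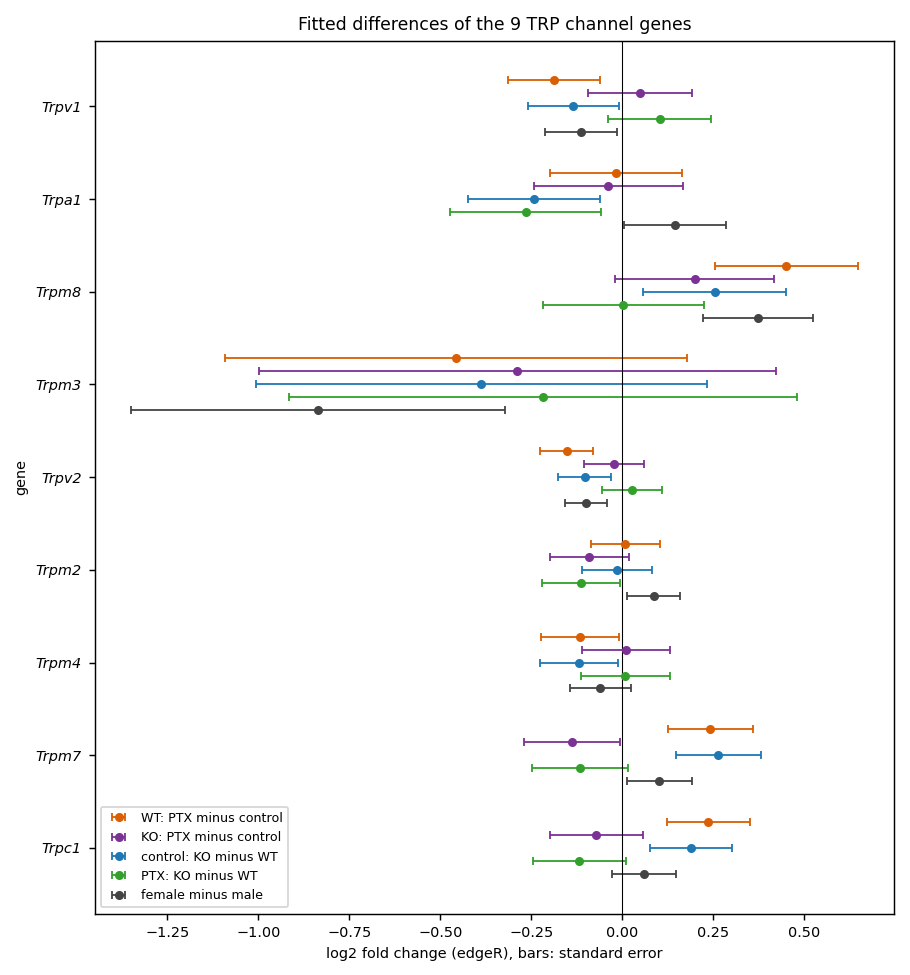
Fitted log2 fold changes (edgeR, horizontal axis) of the 9 genes (vertical axis) in 5 comparisons, with bars for 1 standard error. *Trpm3* has the widest bars, with an SE of up to 0.711, and the *Trpm8* points for PTX in WT mice (0.45) and for sex (0.37) lie farthest to the right.

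*Trpm8* ran against the axon injury genes of each mouse, and *Trpv2* ran with them. An injury score was taken per mouse as the mean log2(FPKM + 1) of *Atf3*, *Sprr1a*, *Gal*, *Sox11* and *Ecel1*, genes that sensory neurons raise after nerve damage. *Atf3*, a transcription factor, ranged from 1.90 to 60.2 FPKM, and *Sprr1a*, a small proline-rich protein of regrowing axons, from 0.09 to 118 FPKM. The score was 4.23 and 5.16 in male WT controls 1 and 2, 3.73 in male KO control 2, and 2.03 to 3.03 in the other 4 males. It was 1.43 to 1.66 in the 4 females. The 3 mice with the highest scores had the 3 lowest *Trpm8* values (2.29, 2.40 and 2.07 FPKM) and the 3 highest *Trpv2* values (20.5, 21.1 and 19.5 FPKM). As a description over 11 mice, *Trpm8* had Pearson's r of -0.874 and Spearman's rho of -0.873 with the score, and *Trpv2* had 0.893 and 0.782. Without the 2 mice farthest from the median score, r was -0.819 and 0.675. Without WT control 1 it was -0.847 and 0.876. Within the 7 males r was -0.825 for *Trpm8* and 0.912 for *Trpv2*, and rho was -0.821 and 0.679. The 4 females were too few for a value. *Trpm7* and *Trpc1* also ran against the score, with r of -0.637 and -0.578 over all mice. Their r was -0.367 and -0.203 without the 2 farthest mice and -0.608 and -0.493 without WT control 1, and rho was -0.857 each in the males. *Trpv1* ran with the score, with r of 0.531 over all mice and rho of 0.318. Its r was 0.364 without the 2 farthest mice and 0.77 without WT control 1. In the males *Trpv1* had r of 0.545 and rho of 0.286. These points share their libraries and their group and sex labels. The relation was noticed in these values, so they give it no independent support.

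In a fit across all genes with group and sex, a test added after the values were seen, 0 of 9 members passed for the slope on the injury score (0.00663% of genes called, which was *Atf3* itself, and 0.418% in DESeq2, with 0 members). The slope of *Trpm8* was -0.30 per unit of score (SE 0.11, edgeR adjusted p = 0.984), and that of *Trpv2* was 0.09 (SE 0.0472, edgeR adjusted p = 1.0). *Trpm8* was the 1 member with an unadjusted p under 0.05 for the slope, against 4.56% of genes. Score, sex and group overlap in these mice, and without sex in the model the slope of *Trpm8* was -0.23 (SE 0.0547, edgeR adjusted p = 0.156). With the score in the model the PTX difference of *Trpm8* in WT mice went from 0.45 to -0.01 (SE 0.233), and its sex difference went from 0.37 to -0.16 (SE 0.232). The *Trpv2* difference after PTX in WT mice went from -0.15 to -0.01 (SE 0.0975). Because of that overlap, the parts of score, sex and PTX in these differences cannot be told apart. Macrophage genes moved with the same comparison, with a summed level of 6 genes of 13.5 to 15.8 FPKM in WT controls and 9.18 to 11.3 after PTX. None of the 6 was called in edgeR, against 0.00663% of genes tested, and 3 were in DESeq2, against 2.05%. The part of the macrophage genes in the channel values was not tested.

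**Figure D4:**
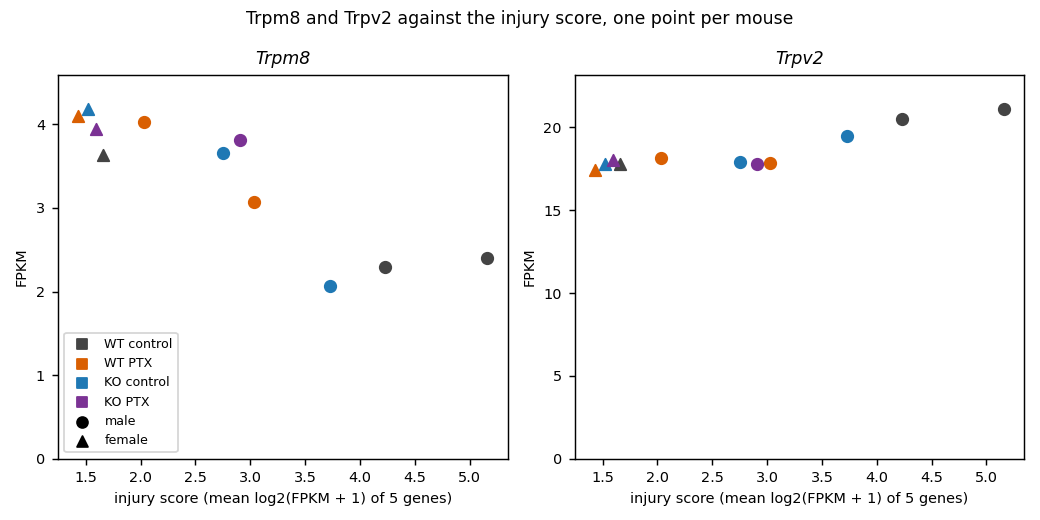
*Trpm8* (left) and *Trpv2* (right) in FPKM against the injury score of each mouse (mean log2(FPKM + 1) of 5 genes), with colours for groups, circles for males and triangles for females. *Trpm8* is at 2.07 to 2.40 FPKM and *Trpv2* at 19.5 to 21.1 FPKM in the 3 mice with the highest scores.

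Between members, 2 pairs varied together across the 11 mice. *Trpm7* and *Trpc1* had r = 0.964 and rho = 0.827, with r = 0.801 without the 2 mice farthest from the median of *Trpm7*, 0.872 without WT control 1 and 0.966 in the 7 males. *Trpa1* and *Trpm2* had r = 0.863 and rho = 0.897, with 0.753, 0.811 and 0.949 in the same order. *Trpm8* and *Trpv2* ran in opposite directions (r = -0.858, rho = -0.627, and -0.82 in males). Of all 36 pairs, 24 had r above 0. These are descriptions over mice that share group, sex and depth, and WT control 1 sat at the low end of both positive pairs.

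**Figure D5:**
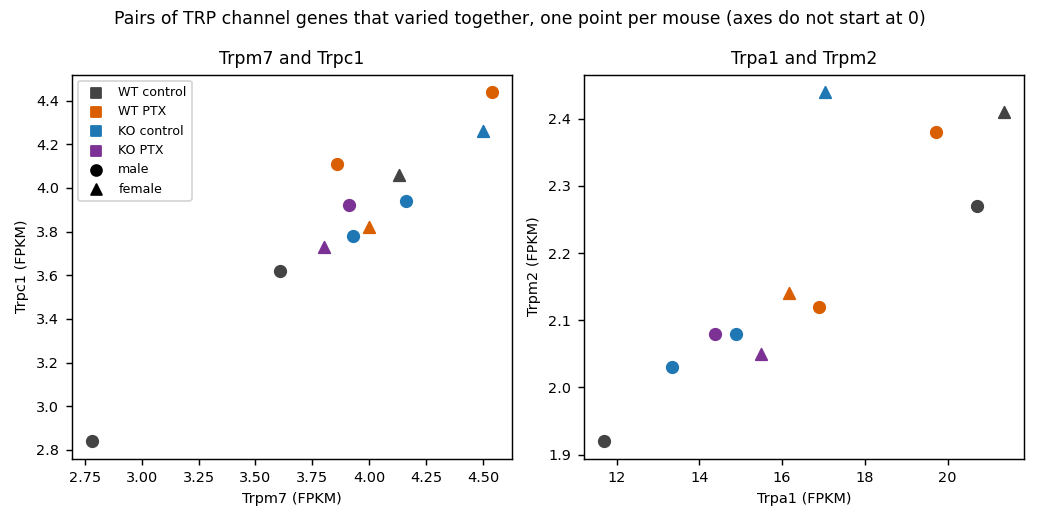
FPKM of *Trpc1* against *Trpm7* (left) and of *Trpm2* against *Trpa1* (right), 1 point per mouse, with axes that do not start at 0. Both pairs rise together, from WT control 1 at 2.78 and 2.84 FPKM for the first pair and at 11.7 and 1.92 FPKM for the second.

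Over the 15087 genes tested, the genes most alike to each member were ranked by Pearson's r of log2(FPKM + 1) over the 11 libraries, as a description. The closest to *Trpv2* were *Socs3* (r = 0.969), *Stac* (0.968) and *Fgf11* (0.965), which were all highest in WT controls 1 and 2 and KO control 2. *Socs3* encodes an inhibitor of cytokine signaling and stood at 4.58, 7.07 and 4.33 FPKM in those 3 mice and at 2.02 to 2.84 in the others. The closest to *Trpm3* was *Fgf2* (0.966), a growth factor gene that was at 0, 0.12 and 0 FPKM in the 3 mice with low *Trpm3* and at 1.75 to 2.35 in the other 8. Both genes take their values from the same estimate of transcripts per library, and whether that step differed in those 3 libraries was not tested. *Trpm7* was closest to *Trpc1* (0.964), and *Trpc1* was closest to *Sel1l* (0.982), a gene of endoplasmic reticulum protein disposal. *Trpv1* was closest to the interferon-induced *Ifi47* (0.96), *Trpa1* to *Zw10* (0.937), *Trpm8* to *Depdc5* (0.942), *Trpm4* to *Pcbp4* (0.938) and *Trpm2* to *Mir7005* (0.925). *Ifi47* stood at 3.84 FPKM in WT control 2, also the highest mouse for *Trpv1*, and at 0.79 to 1.49 FPKM elsewhere. *Rrp12* and *Gbp3*, the next in rank for *Trpv1*, peaked in that mouse too. The r without that mouse was not computed.

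Of 18 other TRP genes with a row, 8 passed the filter. None was called by edgeR in any comparison. The lysosomal channel gene *Mcoln1* was at 8.49 ± 0.389 FPKM (SD, n = 11) and *Trpc6* at 4.14 ± 0.743. *Trpc7* was at 0.667 ± 0.183 FPKM and gave a log2 fold change of -0.75 (SE 0.169, adjusted p = 0.203) after PTX in WT mice in edgeR, while DESeq2 called it lower (adjusted p = 0.0234). *Trpc6* gave 0.46 (SE 0.138, adjusted p = 0.266). The other 10 were under the filter, *Trpv3*, *Trpm1* and *Trpm5* among them.

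Of 28 partners and regulators of TRP channels, 25 were tested and 0 were called by edgeR in any comparison. After PTX in WT mice, 8 of the 25 had an unadjusted p under 0.05, against 13.5% of genes, and 5 had one for sex, against 8.44%. *Pirt*, a membrane protein that binds TRPV1 and TRPM8, was at 264 ± 12.1 FPKM (SD, n = 11), and the calmodulin gene *Calm2* was the highest at 781 ± 33.5. *Tmem100*, whose product links TRPA1 and TRPV1, was at 23.2 ± 5.45 FPKM. The protein kinase C gene *Prkca* gave 0.34 (SE 0.0888, adjusted p = 0.238) after PTX in WT mice in edgeR, and DESeq2 called it higher (adjusted p = 0.0242). The receptor genes *Bdkrb1* and *F2rl1*, for bradykinin and proteases, and the scaffold gene *Akap5* were under the filter, at mean levels of 0.0391, 0.369 and 0.189 FPKM. The median log2 fold change of the tested partners was 0.02 after PTX in WT mice and 0.01 in KO mice, against -0.01 for all genes in both.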

How the data were processed

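Whole DRGs from 11 mice were sequenced as poly(A) libraries with a stranded TruSeq kit. Per the labels, the authors used cutadapt, FastQC, HISAT2 and StringTie with the mm10 genome, and versions are not given in the sources used here. The deposited table holds, per gene, FPKM and an estimated count made by the authors from the StringTie coverage. In WT control 1 a count of 4 occurred for 1369 genes, against 573 for a count of 3 and 334 for 5. Counts entered edgeR (4.0.16, R 4.3.3; quasi-likelihood, TMM) with group and sex over all 11 libraries, for 15087 genes (mean FPKM 0.5 or higher), with Benjamini-Hochberg adjustment over them and a threshold of 0.05. The standard error was the log2 fold change divided by the root of F. DESeq2 (1.42.0) and limma (3.58.1) were alternatives, and the fits were tested on simulated data. Nothing says whether ganglia were pooled, so p-values measure the spread between these libraries.

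Groups came from the labels. The KO PTX mice are numbered 1 and 2 in the titles and 2 and 3 in the descriptions, and the latter were used. The same number does not mark a shared litter or day in the labels. Named genes were all 9 members, up to 4 of each other list (those past the threshold, otherwise the highest), and the 3 most alike genes per member; *Tmem100*, *Trpc7*, *Prkca* and the genes under the filter were added for their roles or their DESeq2 calls, and some genes of the lists are not reported here. Members and lists were chosen with earlier results of these data known. The injury score was added after its genes were seen to vary. Gene lengths came from GENCODE M21, in which 36532 genes of the table were found and 32265 had equal coordinates. Promoters came from RefSeq (GRCm38.p6). Figures and permutation tests used Python 3.11.15, scipy 1.17.1 and matplotlib 3.10.9.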

Additional observations from a re-analysis of the deposited data

How the results depend on the processing

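No member was called in any of the 6 comparisons or for the injury score slope under any alternative run: other size factors, DESeq2, no or a stricter FPKM filter, no sex term, only the compared groups, limma on log2(FPKM + 1) or log2(FPKM + 0.1), the injury score as a covariate, and each mouse left out, where the count was 0 throughout. Of 1251 refitted fold changes, 1170 kept their sign and 81 did not, none of them called. The numbers 1 to 3 were used as a replicate block in place of sex, and the block also gave 0 called members in every comparison. Same-numbered mice of different groups deviated from their group means with r from -0.228 to 0.234, and mice with different numbers with r from -0.234 to 0.235, so the numbers were not taken as pairs. The log2 fold change of *Trpm8* after PTX in WT mice was 0.43 (adjusted p = 0.374) in the block, and from 0.31 to 0.56 with 1 mouse left out. For *Trpm3* in the same comparison it ran from -0.73 to 0.04. Of the 8 neighbouring pairs of levels, 5 differed at an adjusted exact p under 0.05, 5 with a pseudocount of 0.1, and 0 to 4 with 1 replicate number left out. With the longest coding transcript 5 of 8 also differed, but the order and so most pairs were not the same, and of the 4 pairs shared with the FPKM order, 2 went from not separate to separate (*Trpv2* with *Trpa1*, *Trpm7* with *Trpc1*), while *Trpm8* with *Trpm4* changed direction. Among the WT controls alone the count was 0, since 3 mice cannot give less than 0.25. The single gene checks gave 0 and cannot pass at these group sizes. Each member had 620 counts or more in every library.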

Other observations

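Enzymes that make or remove TRP channel ligands were low or even between the mice. Of 10 such genes, 6 passed the filter and 0 were called by edgeR in any comparison. *Parp1*, which makes the poly(ADP-ribose) that gives rise to the TRPM2 ligand, was the highest at 26.5 ± 1.11 FPKM (SD, n = 11). *Nos1*, a nitric oxide synthase, was at 5.43 ± 0.65 FPKM, *Faah*, which degrades anandamide, at 3.05 ± 0.21, and *Napepld*, which makes anandamide, at 2.83 ± 0.365. The median log2 fold change of the 6 was 0.06 after PTX in WT mice, against -0.01 for all genes tested.

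Other genes that mark cold-sensing neurons, tested beside *Trpm8*, gave unlike values among themselves, and none was called. *Cdh8* gave a log2 fold change of 0.38 (SE 0.116, edgeR adjusted p = 0.268) after PTX in WT mice and *Penk* gave 0.02 (SE 0.25, adjusted p = 0.976). In KO mice *Penk* gave 1.04 (SE 0.278, adjusted p = 0.999) and *Cdh8* -0.08 (SE 0.132, adjusted p = 0.999). *Foxp2*, the other gene of that list, was under the filter at 0.229 FPKM. *Penk* peaked in both KO PTX libraries, with 5.99 FPKM in the male and 6.25 in the female, against 2.58 to 5.24 elsewhere. Both libraries also led in the summed spinal cord and central glia genes. Whether RNA of such tissue contributed to the *Penk* values was not tested.

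The channels were also set against the pan-neuronal markers of the same library. The mean log2 level of *Trpv1* minus that of 8 pan-neuronal genes was -2.01 ± 0.247 in WT controls, -2.12 ± 0.10 in WT PTX mice, -2.11 ± 0.0619 in KO controls and -2.06 ± 0.0922 in KO PTX mice (SD, n = 3, 3, 3 and 2). For *Trpm8* it was -5.60 ± 0.277, -5.22 ± 0.21, -5.42 ± 0.373 and -5.19 ± 0.0518. The 8 genes varied themselves. After PTX in WT mice 4 had an unadjusted edgeR p under 0.05, against 13.5% of genes, and DESeq2 called *Tubb3* lower (adjusted p = 0.0253). Of the 8 log2 fold changes 4 were positive and 4 negative. The mean log2 level of the 8 genes was 7.5 in WT controls and 7.45 in WT PTX mice.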
